A study of Mus musculus with 8 samples.

Results

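The circadian clock genes followed here are *Arntl*, *Clock*, *Npas2*, *Per1*, *Per2*, *Per3*, *Cry1*, *Nr1d1*, *Nr1d2* and *Dbp*. They were taken by gene symbol, and all 10 were found among the 33641 genes in the deposited files. Interscapular brown adipose tissue (BAT) was collected from 8 C57BL/6 mice at 28 weeks of age, and its RNA was sequenced. The labels give 3 libraries as wild-type, here called control (A7, A8 and A12), and 5 as adipocyte-specific HuR deletion, *Adipo-HuR-/-* (A31, A29, A26, A25 and A24). HuR is an RNA-binding protein encoded by *Elavl1*, and the deletion was made by crossing floxed *Elavl1* mice with a Cre transgene under the adiponectin promoter, so that other cells of BAT keep HuR. Controls in the study were littermates of several genotypes: without the floxed allele but with Cre, or with 1 or both floxed alleles and no Cre. The legend of the study's RNA-seq figure gives the group sizes the other way round, and the labels were followed. They do not give the genotype of each control, the time of day of collection or the diet. Total estimated counts were 60622522 in A7, 51751002 in A8 and 50673814 in A12. They were 18264754 (A24), 17558090 (A25), 67498055 (A26), 50893173 (A29) and 58727739 (A31), so that the lowest totals were both in libraries labelled *Adipo-HuR-/-*.

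The mammalian clock is a feedback loop of transcription. ARNTL (BMAL1) pairs with CLOCK or NPAS2 and activates the *Per* and *Cry* genes, whose proteins then repress that pair, while the nuclear receptors REV-ERBα (*Nr1d1*) and REV-ERBβ (*Nr1d2*) repress *Arntl*. DBP is an output factor of the loop, and in BAT, as in other peripheral tissues, *Arntl* and *Dbp* are known to peak at opposite times of day, so that their levels in a sample depend on when it was collected.

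*Elavl1* stood at 50.6 (A7), 48.0 (A8) and 49.2 CPM (A12) in the libraries labelled control, and at 61.9 (A24), 47.3 (A25), 43.4 (A26), 61.3 (A29) and 61.2 CPM (A31) in those labelled *Adipo-HuR-/-*. CPM is the count per 1000000 counts of a library, after edgeR's TMM scaling between libraries. The groups overlapped and the gene total was no lower under the *Adipo-HuR-/-* label, with a log2 fold change of 0.16 (its standard error was 0.162, with adjusted p = 0.667 in edgeR's quasi-likelihood test). A positive log2 fold change stands for a higher level in the libraries labelled *Adipo-HuR-/-*, and every direction given below rests on the labels.

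Of the 14851 genes with enough counts to be tested, 105 (0.707%) passed the threshold, an adjusted p of at most 0.05 and a fold change of at least 1.5, by edgeR's quasi-likelihood method. Of the 10 clock genes 0 passed it, and 2 (*Npas2* and *Cry1*) had an unadjusted p under 0.05, as did 17.0% of all genes tested. DESeq2's Wald test placed 1 of the 10 past the threshold (*Npas2*), where it called 5.51% of genes, and edgeR's likelihood ratio test also placed 1 (*Npas2*), where it called 4.41%. limma voom placed 0, where it called 157 of the 14851 genes. Groups without overlap were seen for 1 clock gene of 10 (*Npas2*), against 11.5% of all genes tested. The median log2 fold change of the 10 was 0.18, with 8 positive and 2 negative, beside 0.00098 for all genes tested. This count of signs was not stable, as 4 of the 9 tested were positive without A24 and A25, 5 of 10 without A25 and 6 of 10 in limma voom. Scaling by total counts only moved the median of all genes by 0.23, toward positive values, and 8 were positive there.

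**Figure D1:**
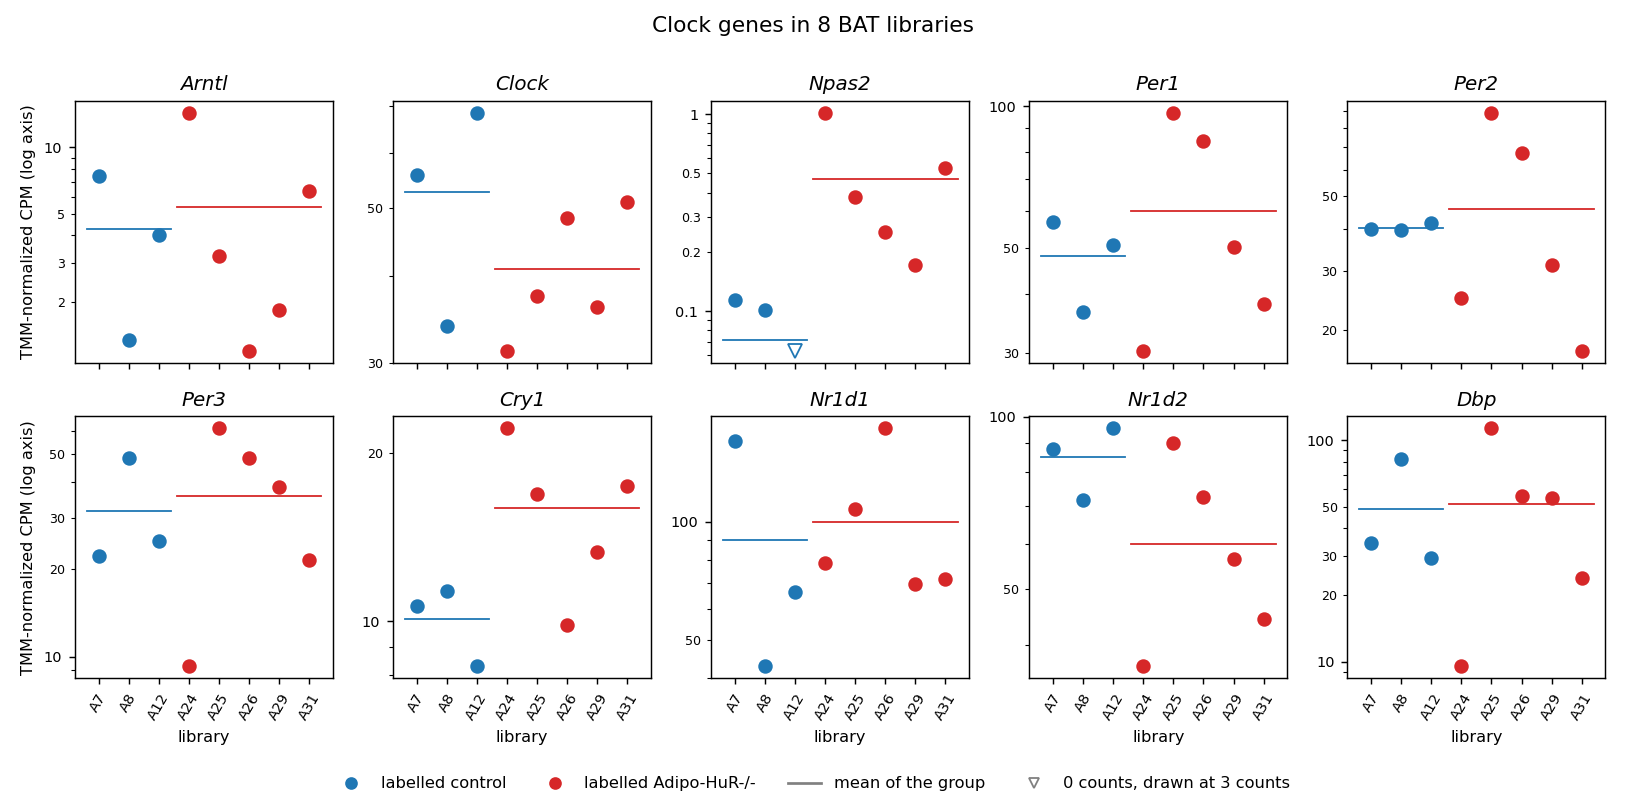
TMM-normalized CPM of each clock gene on a log axis, with 1 point for each library and a line at the mean of each group (3 libraries labelled control, 5 labelled *Adipo-HuR-/-*); the open triangle stands for 0 counts, drawn at 3 counts. *Arntl* ran from 1.20 CPM in A26 to 14.3 in A24, and *Dbp* from 9.53 CPM in A24 to 113 in A25, both within the group labelled *Adipo-HuR-/-*.

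Among the activators, *Arntl* (chromosome 7 of GRCm38, 113207465 to 113314126, plus strand) stood at 7.43 (A7), 1.34 (A8) and 4.03 CPM (A12) in the libraries labelled control, and at 14.3 (A24), 3.23 (A25), 1.20 (A26), 1.84 (A29) and 6.36 CPM (A31) in those labelled *Adipo-HuR-/-*. Both groups thus held high and low libraries and overlapped, with A24 highest and A26 lowest. Means with SD were 4.27 ± 3.05 CPM (n = 3) and 5.39 ± 5.38 CPM (n = 5). This gave a log2 fold change of 0.31 (its standard error was 0.769, with adjusted p = 0.879 in the same edgeR test). It reversed to −0.44 without A24, −0.11 without A8, −0.45 without A24 and A25 and −0.37 in limma voom.

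*Npas2*, which can take the place of CLOCK (chromosome 1, 39193731 to 39363236, plus strand), stood at 7 (A7), 4 (A8) and 0 counts (A12) in the libraries labelled control, and at 18 (A24), 8 (A25), 17 (A26), 9 (A29) and 35 counts (A31) in those labelled *Adipo-HuR-/-*. In CPM these were 0.113, 0.101 and 0 in the libraries labelled control, and 1.02, 0.380, 0.252, 0.170 and 0.530 in those labelled *Adipo-HuR-/-*. Every library labelled *Adipo-HuR-/-* was above every control, but all were at 35 counts or fewer, and the 0 in A12 allows up to 0.0627 CPM at 3 counts. The log2 fold change was 2.58 (standard error 0.861), with adjusted p = 0.165 in edgeR's quasi-likelihood test, 0.0359 in DESeq2's Wald test and 0.0376 in edgeR's likelihood ratio test, within a range of 0.0359 to 0.317 over the alternatives. *Clock* itself (chromosome 5, 76209868 to 76304792, minus strand) had 31.2 to 68.5 CPM, lowest in A24 and highest in A12, and a log2 fold change of −0.37 (its standard error was 0.240, with adjusted p = 0.479 in edgeR's quasi-likelihood test).

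Of the repressors, *Cry1* (chromosome 10, 85131700 to 85185064, minus strand) stood at 10.7 (A7), 11.3 (A8) and 8.30 CPM (A12) in the libraries labelled control, and at 22.2 (A24), 16.9 (A25), 9.84 (A26), 13.3 (A29) and 17.4 CPM (A31) in those labelled *Adipo-HuR-/-*. The groups overlapped through A26, which was below A7 and A8. Means with SD were 10.1 ± 1.59 CPM (n = 3) and 15.9 ± 4.64 CPM (n = 5). This gave a log2 fold change of 0.66 (its standard error was 0.250, with adjusted p = 0.216 in the same test), and it was between 0.42 and 0.90 over all alternatives. *Per2* (chromosome 1, 91415982 to 91459324, minus strand) stood at 39.9 (A7), 39.6 (A8) and 41.5 CPM (A12) in the libraries labelled control, a narrow range. With the *Adipo-HuR-/-* label it stood at 24.98 (A24), 88.6 (A25), 67.1 (A26), 31.2 (A29) and 17.3 CPM (A31), on both sides of the controls. Its log2 fold change was 0.18 (its standard error was 0.463, with adjusted p = 0.879 in the same test). It reversed to −0.20 without A25, −0.073 without A24 and A25, −0.38 with a muscle score as covariate and −0.25 in limma voom.

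*Per3* (chromosome 4, 151003652 to 151044665, minus strand) stood at 22.2 (A7), 48.2 (A8) and 24.9 CPM (A12) in the libraries labelled control, and at 9.25 (A24), 61.1 (A25), 48.2 (A26), 38.3 (A29) and 21.5 CPM (A31) in those labelled *Adipo-HuR-/-*. A24 was lowest and A25 highest, and the groups overlapped, with a log2 fold change of 0.17 (its standard error was 0.505, with adjusted p = 0.899 in the same test), which reversed to −0.12 without A25 and −0.037 without A7. *Per1* (chromosome 11, 69095217 to 69109960, plus strand) ran from 30.3 CPM in A24 to 96.8 in A25, with a log2 fold change of 0.32 (its standard error was 0.364, with adjusted p = 0.708 in the same test) that was 0.076 without A25.

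*Nr1d1* (chromosome 11, 98767932 to 98775333, minus strand) stood at 161 (A7), 42.8 (A8) and 66.1 CPM (A12) in the libraries labelled control, and at 78.6 (A24), 108 (A25), 173 (A26), 69.5 (A29) and 71.4 CPM (A31) in those labelled *Adipo-HuR-/-*. A7 and A26 were high in their groups and A8 was lowest of all, so the groups overlapped, with a log2 fold change of 0.15 (its standard error was 0.432, with adjusted p = 0.893 in the same test). It reversed to −0.18 without A8, −0.14 without A26 and −0.027 without A12. *Nr1d2* (chromosome 14, 18204054 to 18239127, minus strand) had 36.7 CPM in A24 to 95.5 in A12, a log2 fold change of −0.50 (its standard error was 0.269, with adjusted p = 0.374 in the same test). Of the 3077 exonic bases of *Nr1d1*, 263 (8.55%) lie in exons of *Thra* on the other strand. Whether counting used strand is not given in the sources used here, so reads from these bases cannot be told apart.

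*Dbp* (chromosome 7, 45705088 to 45710203, plus strand), the output factor, stood at 34.5 (A7), 82.3 (A8) and 29.5 CPM (A12) in the libraries labelled control, and at 9.53 (A24), 113 (A25), 56.1 (A26), 54.8 (A29) and 23.8 CPM (A31) in those labelled *Adipo-HuR-/-*. A24 was lowest and A25 highest, both labelled *Adipo-HuR-/-*, and the groups overlapped. Means with SD were 48.7 ± 29.2 CPM (n = 3) and 51.5 ± 39.9 CPM (n = 5). This gave a log2 fold change of 0.08 (its standard error was 0.638, with adjusted p = 0.963 in the same test). It reversed to −0.44 without A25, −0.18 without A12, −0.12 without A7 and −0.13 without A24 and A25, and was 0.69 without A8. Of its 2993 exonic bases 539 (18.01%) are shared with *Sphk2* on the other strand.

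Counts divided by transcript length and scaled to the same total in each library allow levels of different genes to be compared. On this scale the mean over the 8 libraries was 55.2 ± 32.1 (SD, n = 8) for *Nr1d1*, 49.8 ± 35.2 for *Dbp*, 24.5 ± 11.5 for *Nr1d2*, 18.6 ± 10.4 for *Per1*, 10.9 ± 7.46 for *Per2* and 9.92 ± 5.32 for *Per3*. It was 8.27 ± 3.07 for *Clock*, 6.49 ± 2.54 for *Cry1*, 2.61 ± 2.15 for *Arntl* and 0.111 ± 0.0967 for *Npas2*. Neighbours in this order differed by less than the larger of their SDs, except that *Arntl* lay below *Cry1*, and *Npas2* below *Arntl*, by more than either SD.

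Within groups, the clock genes varied more than most genes. The pooled SD of log2 CPM within groups was 0.35 at the median of all genes tested, and all 10 clock genes were above that median. *Arntl* (1.35, percentile 97.4), *Dbp* (1.21, percentile 96.4), *Per3* (0.95, percentile 93.0) and *Npas2* (0.95, percentile 92.8, on few counts) were above percentile 90, whereas *Cry1* (0.39) was at percentile 56.8. The ratio of *Arntl* to *Dbp* CPM was 1.503 in A24, 0.268 in A31, 0.216 in A7 and 0.137 in A12. It was 0.0335 in A29, 0.0285 in A25, 0.0214 in A26 and 0.0163 in A8. High and low ratios thus occurred in both groups, and A24 and A25, both of low depth, were far apart.

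Over the 8 libraries, 45 pairs of clock genes were compared by log2 CPM, with two-sided exact permutation p-values. *Per3* and *Dbp* went together (Pearson r = 0.98, exact p = 0.000223, adjusted p = 0.0100; Spearman rho = 0.98, exact p = 0.000397, adjusted p = 0.0179), and r was 0.93 without A24 and A25, the libraries farthest from the median. *Npas2* and *Cry1* had r = 0.90 (exact p = 0.00221, adjusted p = 0.0497; rho = 0.83, exact p = 0.0154, adjusted p = 0.173), and 0.76 without A12 and A24, so that this pair was not past the threshold by rho, and it rests on *Npas2* at 0 to 35 counts. *Arntl* ran opposite to *Per3* (r = −0.87, exact p = 0.00461, adjusted p = 0.0692; rho = −0.81, exact p = 0.0218, adjusted p = 0.196), and r was −0.75 without A24 and A26. For *Arntl* and *Dbp* r was −0.80 (exact p = 0.0163, adjusted p = 0.147; rho = −0.76, exact p = 0.0368, adjusted p = 0.236), and −0.68 without A24 and A26. *Per1* and *Per2* had r = 0.87 (exact p = 0.00764, adjusted p = 0.0859). *Nr1d1* had r = 0.080 with *Arntl*, 0.067 with *Per3* and 0.045 with *Dbp*, all close to 0. Of the 45 pairs 2 had an adjusted p of at most 0.05, and 9 had an unadjusted p under 0.05. Without the low-depth pair A24 and A25, 40 of 45 kept the sign of r and 0 had an adjusted p of at most 0.05 in the exact test, while 5 had an unadjusted p under 0.05. With 6 libraries the smallest p is 0.00139 and a lone pair cannot go below an adjusted p of 0.0625, so this count says nothing about how stable the relations are. In these 6, r was −0.99 for *Arntl* and *Per3* and −0.88 for *Arntl* and *Dbp*, both stronger than over all 8. It was 0.93 for *Per3* and *Dbp*, 0.82 for *Npas2* and *Cry1* and 0.76 for *Per1* and *Per2*, each weaker than over all 8. As deviations from group means, *Per3* and *Dbp* had r = 0.98 and *Arntl* and *Dbp* r = −0.80, close to the values over all libraries. For *Npas2* and *Cry1* this r was 0.82, below the 0.90 over all libraries, and both genes had a higher mean with the *Adipo-HuR-/-* label. The exact test shuffled all 8 libraries without regard to group, so its p for that pair also takes in the difference between groups. No r within groups was tested, and *Arntl* and *Dbp* did not pass after adjustment. The part of collection time in these relations was not tested.

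Genes most like *Arntl* over the 8 libraries, among 9130 genes with a mean of at least 5 CPM, were *Polr3d* (r = 0.94), *Tubb2a* (0.91), *Cxcl14* (0.90), *Hmox1* (0.89) and *Ykt6* (0.89). Those most like *Dbp* were *Tef* (r = 0.95), *AI464131* (0.95), *Jag1* (0.92), *Tshz1* (0.91) and *Paxbp1* (0.91). *Tef*, a factor of the same family as DBP, had 77.1 CPM in A24 to 240 in A25 and ranked first for *Dbp*, whereas for *Arntl* its r was −0.90, rank 9126 of 9130. These are descriptions over 8 libraries, with 4 of the 5 genes for *Arntl* highest in A24 (all but *Ykt6*) and 5 of 5 for *Dbp* lowest there.

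**Figure D2:**
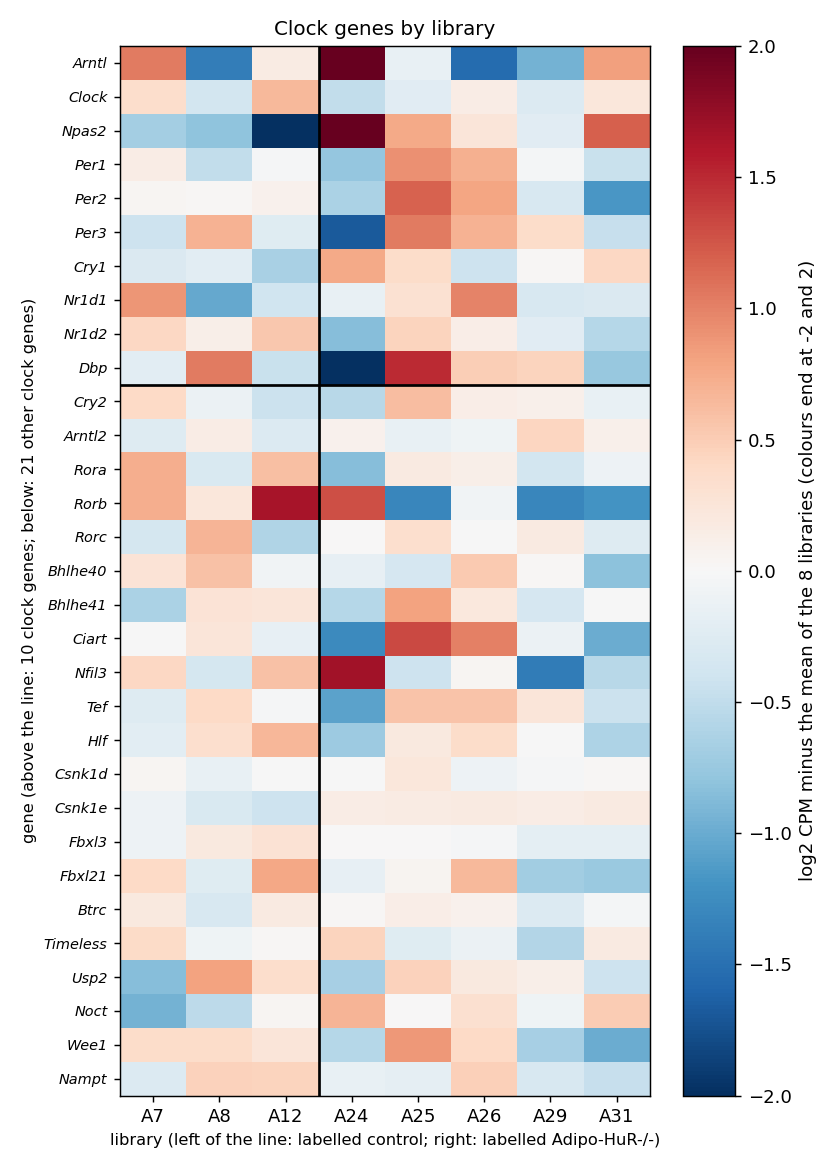
Log2 CPM of the 10 clock genes and 21 other clock genes in each library, minus the mean of the 8 libraries, with colours ending at −2 and 2. A24 was the highest library for *Arntl*, *Npas2* and *Cry1* and the lowest for 5 of the 10 (*Clock*, *Per1*, *Per3*, *Nr1d2* and *Dbp*), and A25 was the highest for *Per1*, *Per2*, *Per3* and *Dbp*.

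Of 21 other clock genes and outputs, all 21 were tested. By edgeR's quasi-likelihood method 0 of them passed the threshold, beside 0.707% of all genes tested. At an unadjusted p under 0.05 there were 2 (*Csnk1e* and *Noct*), beside 17.0% of all genes tested. DESeq2's Wald test, the likelihood ratio test and limma voom also placed 0 past the threshold, where they called 5.51%, 4.41% and 157 of 14851 genes. The 21 genes had 9 positive and 12 negative log2 fold changes with a median of −0.05, and with total counts only 14 were positive. The groups did not overlap for 1 of 21, a count that is not above the 11.5% of all genes tested. This gene was *Csnk1e*, a kinase that phosphorylates PER proteins. It stood at 22.8 (A7), 19.8 (A8) and 18.4 CPM (A12) in the libraries labelled control, and at 27.1 (A24), 27.5 (A25), 27.8 (A26), 27.0 (A29) and 27.6 CPM (A31) in those labelled *Adipo-HuR-/-*. The libraries labelled *Adipo-HuR-/-* were above the controls and the log2 fold change was 0.43 (its standard error was 0.129, with adjusted p = 0.129 in the same test, 0.0223 to 0.474 over the alternatives). *Nampt*, the most abundant of the list per length, had 187 CPM in A31 to 362 in A26. Within groups, 16 of the 21 had an SD of log2 CPM above the median of all genes tested, and 3 were above percentile 90.

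The files divide each gene's count between its transcripts as an estimate. Of 41 transcripts of the 10 genes, 17 from 9 genes had a mean share of at least 10%, and 0 had p of at most 0.05 in a two-sided exact permutation test over the 56 splits, where the smallest p the splits allow is 0.0179 (lowest adjusted p = 0.992). *Npas2*, at 0 in A12, has no share there and was left out. The 1 transcript of *Per2* among the 17 held 100% in all 8 libraries, so its test could not give a difference. *Per1-201*, which starts at 69098948, held 76.1% of the *Per1* count in A7, 89.6% in A8 and 85.5% in A12. It held 0.00357% (A24), 77.3% (A25), 79.5% (A26), 47.6% (A29) and 81.6% (A31). In A24, *Per1-203*, which starts at 69100522, held 77.5% instead, against at most 4.61% elsewhere, so that A24 stood apart from the other 7 libraries. All 4537 bases of *Per1-203* are also in *Per1-201*, which has 134 bases of its own, so this division rests on few bases, and *Per1* had 537 counts in A24. Shares also varied in other genes and libraries, some of them on fewer counts. *Arntl-201* held 96.2% of 53 *Arntl* counts in A8 and 17.8% of 97 in A29, and *Per3-204* held 70.6% of 164 *Per3* counts in A24 and 14.1% to 44.8% in the other libraries.

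**Figure D3:**
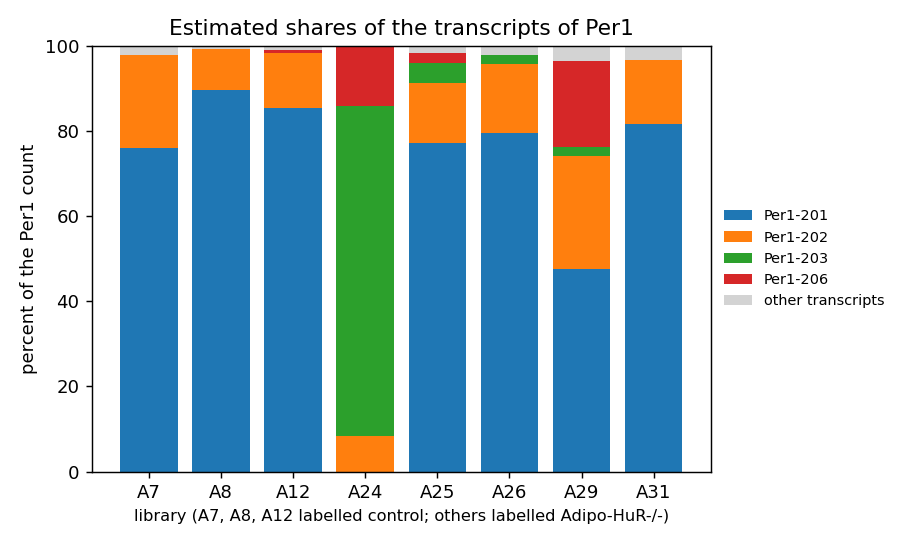
Estimated percent of the *Per1* count held by each transcript in each library (stacked bars from 0 to 100). *Per1-203* held 77.5% in A24 and at most 4.61% in the other 7 libraries.

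Promoters of 9 of the 10 genes were in the RefSeq table (GRCm38.p6), 13 starts in all, each with 250 bases before and 50 after the start, and *Per2* was not matched. They were searched on both strands for the E-box CACGTG, bound by ARNTL and CLOCK, its variant CACGTT, the D-box TTATGNAA, bound by DBP and TEF, the ROR element core TAGGTCA and the cAMP response element TGACGTCA. Of all 32851 promoters 7.15% held CACGTG, 4.68% CACGTT, 3.38% TTATGNAA, 2.61% TAGGTCA and 1.79% TGACGTCA. Among the clock genes, CACGTG was found for *Per1* and *Cry1*, CACGTT for *Cry1* and *Nr1d1*, TTATGNAA for *Per1* and *Per3*, TAGGTCA for *Arntl* after the start, and TGACGTCA for 0. The 250 bases before the start are shown for *Per3*, whose level followed *Dbp*, for *Cry1* and for the *Per1* start at 69098949, which lies 1 base inside *Per1-201*, the transcript with the largest share of *Per1* in the 7 libraries other than A24. The last base shown for *Per1* and the last 10 for *Cry1* are in the annotated first exon of *Per1-201* and *Cry1-201*. Sequences are 5′ to 3′ on the strand of the gene, with matches in capitals, and a match is a description of letters only.

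*Per3* (chr4:151044666-151044915, minus strand): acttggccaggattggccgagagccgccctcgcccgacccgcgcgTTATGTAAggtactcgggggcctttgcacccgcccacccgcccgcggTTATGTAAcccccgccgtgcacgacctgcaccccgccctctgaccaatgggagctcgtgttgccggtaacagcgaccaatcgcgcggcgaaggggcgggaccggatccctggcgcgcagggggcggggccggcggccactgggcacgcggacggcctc

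*Cry1* (chr10:85185055-85185304, minus strand): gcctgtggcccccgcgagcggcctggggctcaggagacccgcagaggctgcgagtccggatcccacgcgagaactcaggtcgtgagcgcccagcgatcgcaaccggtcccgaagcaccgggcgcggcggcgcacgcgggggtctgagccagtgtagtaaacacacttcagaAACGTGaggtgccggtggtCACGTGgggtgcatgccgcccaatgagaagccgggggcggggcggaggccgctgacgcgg

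*Per1* (chr11:69098699-69098948, plus strand): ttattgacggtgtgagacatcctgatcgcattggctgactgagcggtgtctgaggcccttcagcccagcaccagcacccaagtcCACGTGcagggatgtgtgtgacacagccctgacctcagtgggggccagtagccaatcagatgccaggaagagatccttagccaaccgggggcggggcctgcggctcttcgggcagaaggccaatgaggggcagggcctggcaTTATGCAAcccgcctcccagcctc

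*Per3* held TTATGTAA at 2 places and *Per1* held CACGTG and TTATGCAA. *Cry1* held AACGTG, the reverse complement of CACGTT, and CACGTG.

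Signals other than time also act on clock genes, and their lists were read beside them. The 6 heat shock genes had summed levels of 2958 (A7), 3340 (A8), 3857 (A12), 6071 (A24), 7446 (A25), 2930 (A26), 2514 (A29) and 4365 CPM (A31). A24 and A25 had the highest sums, and *Hspa1a* had 676 and 1165 CPM there against at most 135 CPM elsewhere, while *Hspa8*, the most abundant per length, had 1565 to 2908 CPM. *Hspa1b* had 855 and 1402 CPM in A24 and A25 against at most 134 elsewhere, and *Dnajb1* 296 and 195 CPM against at most 118. *Hsph1* had 294 and 664 CPM against at most 284, a narrow gap for A24, while for *Hspa8* and *Hsp90aa1* other libraries lay between or above them. A24 and A25, the lowest and highest libraries for *Per3* and *Dbp*, were also the lowest in depth, and the part of these genes and of depth in the clock values was not tested. In edgeR's quasi-likelihood test 0 of 6 heat shock genes passed the threshold, with 1 at an unadjusted p under 0.05. For 10 glucocorticoid-responsive, 2 temperature-responsive RNA-binding and 8 immediate early genes these counts were 0 and 0, 0 and 1, and 0 and 0. Of all genes tested 0.707% passed it and 17.0% had an unadjusted p under 0.05. DESeq2's Wald test and the likelihood ratio test also placed 0 of each list past it, where they called 5.51% and 4.41% of all genes. Among the immediate early genes, DESeq2 gave no adjusted p for *Fos* and *Fosb*, so these could not pass in its test. In the same order, the median log2 fold changes of the lists were 0.67, 0.10, −0.35 and 0.23. Most abundant per length were *Pdk4* (1056 to 3744 CPM), *Rbm3* (22.7 to 66.0 CPM) and *Dusp1* (32.4 to 113 CPM).

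Markers of the tissue and of other cells were also counted. The 10 brown adipocyte genes summed to 14529 CPM in A25 to 31554 in A8, with *Fabp4* most abundant per length, and none was at 0. The 12 skeletal muscle genes summed to 3520 CPM in A7, 2047 in A8 and 362 in A31, against 2.13 in A12, 2.48 in A24, 3.18 in A25, 2.61 in A26 and 2.73 in A29. Their most abundant gene per length, *Tnnt3*, had 371 CPM in A7, 348 in A8 and 45.9 in A31, and 0 in A24. Of 11 muscle genes tested 0 were past the threshold in the quasi-likelihood test, 8 had an unadjusted p under 0.05, and 1 and 2 were past it in DESeq2's Wald test and the likelihood ratio test. DESeq2 gave no adjusted p for *Tnnt3*, *Tnnc2* and *Pvalb*, so these could not pass in its test. Of all genes tested 0.707% were past the threshold in the quasi-likelihood test, 17.0% had an unadjusted p under 0.05, and 5.51% and 4.41% were past it in the other tests. limma voom placed 0 of the 11 past it, where it called 157 of the 14851 genes. Groups without overlap were seen for 0 of the 11, against 11.5% of all genes tested. These genes were high together in A7, A8 and A31, so the 8 of 11 are not separate results to set against that background. Muscle RNA was thus present in 2 of 3 controls and 1 of 5 libraries labelled *Adipo-HuR-/-*. With the muscle score as a covariate in the quasi-likelihood fit, the log2 fold change of *Per2* went from 0.18 to −0.38, that of *Per1* from 0.32 to 0.050 and that of *Npas2* from 2.58 to 3.65. As without the covariate, 0 of 10 clock genes were past the threshold (0.101% of all genes were), with 3 (*Npas2*, *Cry1* and *Nr1d2*) at an unadjusted p under 0.05, beside 11.6% of all genes. Other tests were not run with the covariate. Leaving out A7, A8 and A31 leaves A12 as the only control, and that fit placed 0 of 10 past the threshold (0.0256% of all genes were), with 2 (*Clock* and *Npas2*) at an unadjusted p under 0.05, beside 13.3% of all genes. As A12 alone is assumed to vary like the other group, nothing is read from these counts. In bulk tissue, fewer cells of a type and less RNA per cell cannot be told apart. In the quasi-likelihood test 0 were past the threshold among 10 brown adipocyte genes (1 at an unadjusted p under 0.05), 5 macrophage (0), 4 lymphocyte (1), 4 endothelial (1), 3 white adipocyte (2) and 4 sex-linked genes (0), to be read beside the same 0.707% and 17.0% of all genes, and DESeq2's Wald test placed 1 white adipocyte gene past it. The 2 white adipocyte genes went opposite ways, *Lep* with a log2 fold change of −1.22 and *Agt* with 1.99. DESeq2 called *Agt*, which had 5 (A7), 6 (A8) and 12 counts (A12) in the libraries labelled control. Most abundant per length in these lists were *Lyz2*, *Cd79a*, *Cdh5*, *Nnat* and *Eif2s3y*.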

How the data were processed

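The authors deposited estimated counts per transcript, not normalized, for 8 poly(A) BAT libraries. Reads were mapped by the authors in CLC Genomics Workbench, and the program that wrote the estimated counts is not given in the sources used here. Transcript values were summed by gene symbol, rounded to whole numbers, filtered with filterByExpr and scaled by TMM, and the quasi-likelihood F-test was run in edgeR 4.0.16 (R 4.3.3), with Benjamini-Hochberg adjustment over 14851 genes. The standard error is the size of the log2 fold change divided by the square root of F. Log2 CPM used a prior count of 2. DESeq2 1.42.0 and limma 3.58.1 were run as alternatives, and Python 3.11.15 with scipy 1.17.1, numpy 2.4.6, pandas 2.3.3, statsmodels 0.14.6 and matplotlib 3.10.9 for the rest. Positions, lengths and transcripts are from GENCODE M21, and promoters from RefSeq GRCm38.p6. Alternatives were scaling by total counts or by DESeq2's size factors, the likelihood ratio and Wald tests, limma voom with quality weights, other filters and thresholds, the highest transcript per gene, a muscle score as covariate, and libraries left out. The edgeR steps were tested on simulated data. Named genes were the clock genes, other clock genes whose groups do not overlap, the most abundant gene of each list and *Elavl1*. The 5 genes most like *Arntl* and *Dbp* each were also named, and *Thra* and *Sphk2* as genes that overlap clock genes. Singled out after their values were seen were *Noct*, *Nfil3*, *Rorb*, *Lep*, *Agt*, *Tnnc2*, *Pvalb*, *Fos*, *Fosb* and the heat shock genes other than *Hspa8*. The same holds for the transcripts of *Per1*, *Per3* and *Arntl*. The clock genes and the lists were chosen with earlier results of these data known. The result of 1 marker list is not reported here. Whether libraries are separate animals is as the labels give it. Intervals and the 3-count floor cover counting error only. Totals lay between 17558090 and 67498055 counts per library.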

Additional observations from a re-analysis of the deposited data

Results flagged for a closer look

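Dixon's criterion (critical value 0.71) was read in 70 groups of 5 values from the libraries labelled *Adipo-HuR-/-*. These were the levels of 53 genes named by rule or singled out (31 of them clock genes, beside *Elavl1*, the most abundant gene of each reported list, the genes most like *Arntl* and *Dbp*, and *Hspa1a*) and the shares of 17 transcripts. The share of 1 *Per2* transcript was 100% in all 5 libraries, so that this group could not be flagged. In 6 of the 70, 1 library was far from the other 4, and the count depends on which groups were read. Chance gives about 1 in 20 only for separate groups of normally distributed values. These values were CPM without logs and shares, from genes that partly moved together, and some genes were picked from these data. The 6 of 70 can therefore not be measured against that rate. *Nfil3*, a repressor that binds the same element as DBP, had 76.2 CPM in A24 and 24.4 in the nearest library, with controls at 18.6 to 35.6. *Rorb* had 0.790 CPM in A24 and 0.282 in the nearest, on 14 counts in A24, but the control A12 was higher, at 1.02. *Nampt* had 362 CPM in A26 and 234 in the nearest, and the controls A8 and A12 were close to A26, at 358 and 353. *Tnnt3*, a skeletal muscle gene, had 45.9 CPM in A31, with 371 and 348 in the controls A7 and A8. The nearest library, A25, had 2 counts, under the floor of 3 counts, which is 0.142 CPM there. *Hmox1*, named for its likeness to *Arntl*, which is also highest in A24, had 117 CPM in A24 and 33.2 in the nearest. *Per1-203* held 77.5% of the *Per1* count in A24 and 4.61% in the nearest. The low depth of A24 was not tested as a cause.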

How the results depend on the processing

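The number of genes past the threshold was 105. It was 818 in DESeq2's Wald test, 655 in the likelihood ratio test, 16 with the highest transcript in place of the gene sum, 15 with the muscle score as a covariate, 5 without A24 and A25, and 469 at an adjusted p of at most 0.10, and 10 to 190 when single libraries were left out. It was 4 without A7, A8 and A31, where A12 is the only control, the spread comes from the 4 libraries of the other group, and A12 is assumed to vary like them. The number of clock genes past it was 0, and 1 (*Npas2*) in the Wald and likelihood ratio tests, with log2 fold changes of 2.66 and 2.60. *Npas2* was not tested with at least 10 counts in every library or without A24 and A25. No log2 fold change of *Clock*, *Npas2*, *Per1*, *Cry1*, *Nr1d2*, *Csnk1e* or *Elavl1* reversed under the alternatives run, but some moved far. *Per1* was 0.0030 with the highest transcript, 0.050 with the muscle covariate and 0.076 without A25, but 0.54 with total counts only. *Elavl1* ran from 0.11 without A24 to 0.46 with the highest transcript. *Nr1d2* ran from −0.27 with total counts only to −0.74 with the muscle covariate, and *Csnk1e* from 0.34 with the highest transcript to 0.65 with total counts only. *Clock* ran from −0.069 with the highest transcript to −0.84 without A7, A8 and A31, and from −0.13 without A12 to −0.60 without A8. *Npas2* ran from 2.02 without A12 to 3.65 with the muscle covariate, and its value without A7, A8 and A31 is no measure of size, as the only control is at 0. *Arntl* reversed to −0.37 in limma voom and −0.45 without A24 and A25, and gave −0.44 to 0.97 when single libraries were left out. *Per2* reversed to −0.25 in limma voom, −0.38 with the muscle covariate and −0.073 without A24 and A25, and −0.20 to 0.39 when single libraries were left out. *Dbp* reversed to −0.13 without A24 and A25 and gave −0.44 to 0.69 likewise. With single libraries left out, *Per3* gave −0.12 to 0.60 and *Nr1d1* −0.18 to 0.88. The pairs of clock genes with an adjusted p of at most 0.05 numbered 2, 1 by Spearman rho (*Npas2* and *Cry1* were lost), and 0 without A24 and A25, a choice made after seeing the data, where 6 libraries allow a smallest p of 0.00139, so that a lone pair cannot go below an adjusted p of 0.0625. The cause of the other changes was not tested. In A24 and A25, the libraries of lowest depth, 3 counts stand for 0.169 and 0.142 CPM, against at most 0.0759 CPM in the others. A count of 0 in A24 and A25 thus allows levels up to these, higher than in the other libraries.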
